A study of Mus musculus with 55 samples.

Results

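Electron transfer flavoprotein (ETF) is the mitochondrial carrier that takes electrons from the acyl-CoA dehydrogenases of fatty acid and amino acid breakdown. The genes described here are its subunit genes Etfa and Etfb, the gene Etfdh of ETF-ubiquinone oxidoreductase, and Etfbkmt, a lysine methyltransferase of the ETF beta subunit. Members were the probe sets annotated to exactly 1 of these 4 symbols. That rule found 6 probe sets of the 45101 in the table, and 4 genes of the 18193 with at least 1 single-gene probe set. Etfbkmt and Etfdh each had 2 probe sets, and Etfa and Etfb had 1 each. Unless said otherwise, values are those of the brightest probe set of each gene, which exceeded 20 on the linear scale in all 55 hearts. In the annotation (GRCm38.p6) the genes lie apart, Etfa at chr9:55454436-55512243, Etfb at chr7:43444072-43457800, Etfdh at chr3:79603788-79628767 and Etfbkmt at chr6:149141476-149151171.

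Messenger RNA was measured in whole hearts of male mice of the Sv129 strain, with 1 array per heart and 55 hearts in all. The mice lacked PPARα (KO, PPARα-/-, substrain 129S4/SvJae by the labels, 30 hearts) or were wild type (WT, substrain 129S1/SvImJ, 25 hearts), so genotype and substrain cannot be told apart in any KO to WT comparison. Before the experiment all mice ate a run-in diet with olive oil as its fat. They were fasted for 4 h, given 1 gavage of 400 µL and killed 6 h later. The gavage was a triglyceride of a single fatty acid: triolein (oleic acid, 1 double bond), trilinolein (linoleic acid, 2 double bonds), trilinolenin (linolenic acid, 3 double bonds) or tridocosahexaenoin (docosahexaenoic acid, 6 double bonds). Others received the synthetic PPARα agonist Wy14643 at 10 mg/mL in carboxymethyl cellulose, or that vehicle alone as control, which one label field calls no treatment. Each KO group held 5 hearts. The WT groups held 4 hearts after triolein, 5 after trilinolein, 4 after trilinolenin, 5 after tridocosahexaenoin, 4 after Wy14643 and 3 after control. Age is given both as 9 to 12 weeks and as 2 to 6 months. The control vehicle holds no fat, so a triglyceride set against control differs in fat as such as well as in its fatty acid.

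As background, ETF is a dimer of an alpha and a beta subunit that holds a flavin. Its electrons pass to ETF-ubiquinone oxidoreductase in the inner membrane, and from there through ubiquinone to the respiratory chain. In the heart, which runs largely on fatty acids, this is the route by which the first step of beta-oxidation reaches the chain. The human form of the methyltransferase modifies lysines close to the loop by which ETF beta docks on the dehydrogenases. In laboratory assays that modification slowed electron transfer from them. PPARα is a nuclear receptor that is activated by fatty acids and binds DNA with RXR at a direct repeat of the AGGTCA half-site.

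Values are log2 signals, so a difference of 1 is a doubling. Pairs of arrays correlated at 0.988 to 0.996 over all probe sets. In whole tissue, fewer cells of a type and less RNA per cell cannot be told apart. The labelled tissue carried its defining markers: all 7 ventricular cardiomyocyte genes examined were bright enough to test, and 0 of 7 differed between KO and WT at any gavage or after any gavage by the test used below. The targeted gene Ppara was lower in KO than in WT hearts at each of the 6 gavages, by 0.50 to 1.09 on the log2 scale (adjusted p at most 0.00332, limma).

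The 300-base windows around the annotated starts of Etfdh and Etfbkmt are shown because these genes gave the largest genotype difference and the gavage response. Capitals mark matches to the 6 motifs searched on both strands, with the window running from 250 bases before to 50 bases after the start (RefSeq, mouse build GRCm38.p6; windows of all 4 genes were found). The window of Etfbkmt begins its count at a start that lies inside the annotated gene, to the right of its first base.
Etfdh, chr3:79628718-79629017, minus strand: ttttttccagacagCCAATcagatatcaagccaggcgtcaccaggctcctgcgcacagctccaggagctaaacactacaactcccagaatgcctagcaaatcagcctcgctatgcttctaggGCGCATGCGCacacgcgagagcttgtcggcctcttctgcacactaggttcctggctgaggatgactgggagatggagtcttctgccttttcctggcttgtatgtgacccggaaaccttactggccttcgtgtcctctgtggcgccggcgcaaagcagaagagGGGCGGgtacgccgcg
Etfbkmt, chr6:149141263-149141562, plus strand: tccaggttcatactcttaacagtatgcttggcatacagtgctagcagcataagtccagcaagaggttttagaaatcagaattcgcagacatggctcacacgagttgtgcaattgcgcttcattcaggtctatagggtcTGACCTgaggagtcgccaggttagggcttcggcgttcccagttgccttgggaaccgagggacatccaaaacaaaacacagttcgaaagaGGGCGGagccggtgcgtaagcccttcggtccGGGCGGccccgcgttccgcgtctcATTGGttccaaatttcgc

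The nuclear receptor half-site AGGTCA was matched in the Etfbkmt window, as TGACCT on the other strand with its first base at -112, and in none of the other 3 windows. It occurs in 16.3% of the 32851 windows of the table. The direct repeat of that half-site with 1 base between its 2 copies, allowing 2 mismatches, was matched in the Etfa window alone, as TTACCTTTGCCCT at -77, and occurs in 3.86% of windows. The NRF1 motif, GCGCA followed directly by its own reverse complement, was matched in the Etfdh window alone, at -128, and occurs in 0.971% of windows. CCAAT was found in all 4 windows (37.4% of windows) and GGGCGG in those of Etfb, Etfdh and Etfbkmt (35.7% of windows). The estrogen-related receptor motif TCAAGGTCA, found in 0.423% of windows, was in none of the 4. AGGTCA is contained in the repeat and in TCAAGGTCA, so these searches overlap. A match is a description of the letters and not a binding site.

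Etfbkmt was the member that moved with the gavage. In KO hearts its mRNA rose after all 4 triglycerides, by 1.37-fold after triolein, 1.83-fold after trilinolein, 1.86-fold after trilinolenin and 1.45-fold after tridocosahexaenoin. No call was made after Wy14643. In WT hearts the estimates were of similar size and order. Etfbkmt was chosen by its high level after trilinolein in WT hearts, a value of this same table, so each of its differences that uses WT hearts is given without a test. Members were chosen with earlier results of these data known, so the p-values of Etfbkmt in KO hearts may be too small.

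In KO hearts after triolein the log2 signals of Etfbkmt were 8.42, 8.28, 8.69, 8.51 and 8.66, against 8.14, 7.99, 8.12, 7.96 and 8.07 in KO control hearts. After trilinolein they were 9.01, 8.87, 8.85, 9.04 and 8.86. After trilinolenin they were 9.02, 8.99, 8.91, 8.84 and 8.98. Among the hearts of these groups the 5 control hearts were the lowest, and the hearts of the linoleic and linolenic oils lay close together above the hearts of triolein. After tridocosahexaenoin the signals were 8.41, 8.59, 8.69, 8.33 and 8.96, the widest spread of the KO groups. After Wy14643 they were 8.37, 8.24, 8.30, 8.35 and 7.97. Every heart given a triglyceride was above every KO control heart, whereas 4 of 5 hearts given Wy14643 were above and 1 lay among the controls. Of all genes, 1.7% lay wholly above the KO controls after triolein, 3% after trilinolein, 3.71% after trilinolenin and 1.38% after tridocosahexaenoin.

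The KO differences from control were tested with limma in 1 fit of 12 group means, with p-values adjusted in each comparison over the 8237 genes whose linear signal exceeded 20 in 3 hearts or more, all 4 members among them. Etfbkmt rose by 0.45 ± 0.10 after triolein (SE, adjusted p = 0.0298), a comparison in which 1.15% of genes were called. It rose by 0.87 ± 0.10 after trilinolein (adjusted p = 7.58e-07, limma), where 4.32% of genes were called. It rose by 0.89 ± 0.10 after trilinolenin (adjusted p = 3.63e-07, limma), where 11.9% of genes were called. After tridocosahexaenoin it rose by 0.54 ± 0.10 (adjusted p = 0.0023, limma; 3.54% of genes called). These increases are for the methyltransferase transcript and say nothing of the protein or of methylated ETF beta. After Wy14643 the difference was 0.19 ± 0.10 (95% interval -0.02 to 0.40, adjusted p = 0.561, limma; 0.0728% of genes called). The triolein call did not hold without KO control replicate 1, 2, 3 or 4 or without KO triolein replicate 3, 4 or 5, each left out singly, with adjusted p between 0.0509 and 0.089. With the mean of both probe sets the triolein difference was 0.18, given without a test because the dim probe set enters it. The tridocosahexaenoin call was lost when its 2 groups were fitted alone (adjusted p = 0.0922, limma).

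In WT hearts after triolein the log2 signals of Etfbkmt were 8.89, 8.53, 8.88 and 9.00, against 8.35, 8.29 and 8.38 in WT control hearts. After trilinolein they were 9.25, 9.33, 9.26, 9.27 and 9.33, and after trilinolenin 9.30, 9.41, 9.37 and 9.27. After tridocosahexaenoin they were 8.85, 8.44, 9.19, 8.68 and 9.15, and after Wy14643 8.16, 8.48, 8.56 and 8.25. No heart given a triglyceride overlapped the WT controls, and the hearts given Wy14643 lay on both sides of them. Groups lay wholly above the controls for 2.21% of genes after triolein, 5.06% after trilinolein, 6.48% after trilinolenin and 3.19% after tridocosahexaenoin. The differences from control were 0.48 ± 0.13, 0.95 ± 0.12, 1.00 ± 0.13 and 0.52 ± 0.12 for the 4 triglycerides in that order (SE), and 0.02 ± 0.13 for Wy14643. As folds, the 2 largest were 1.93 after trilinolein and 2.00 after trilinolenin.

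**Figure D1:**
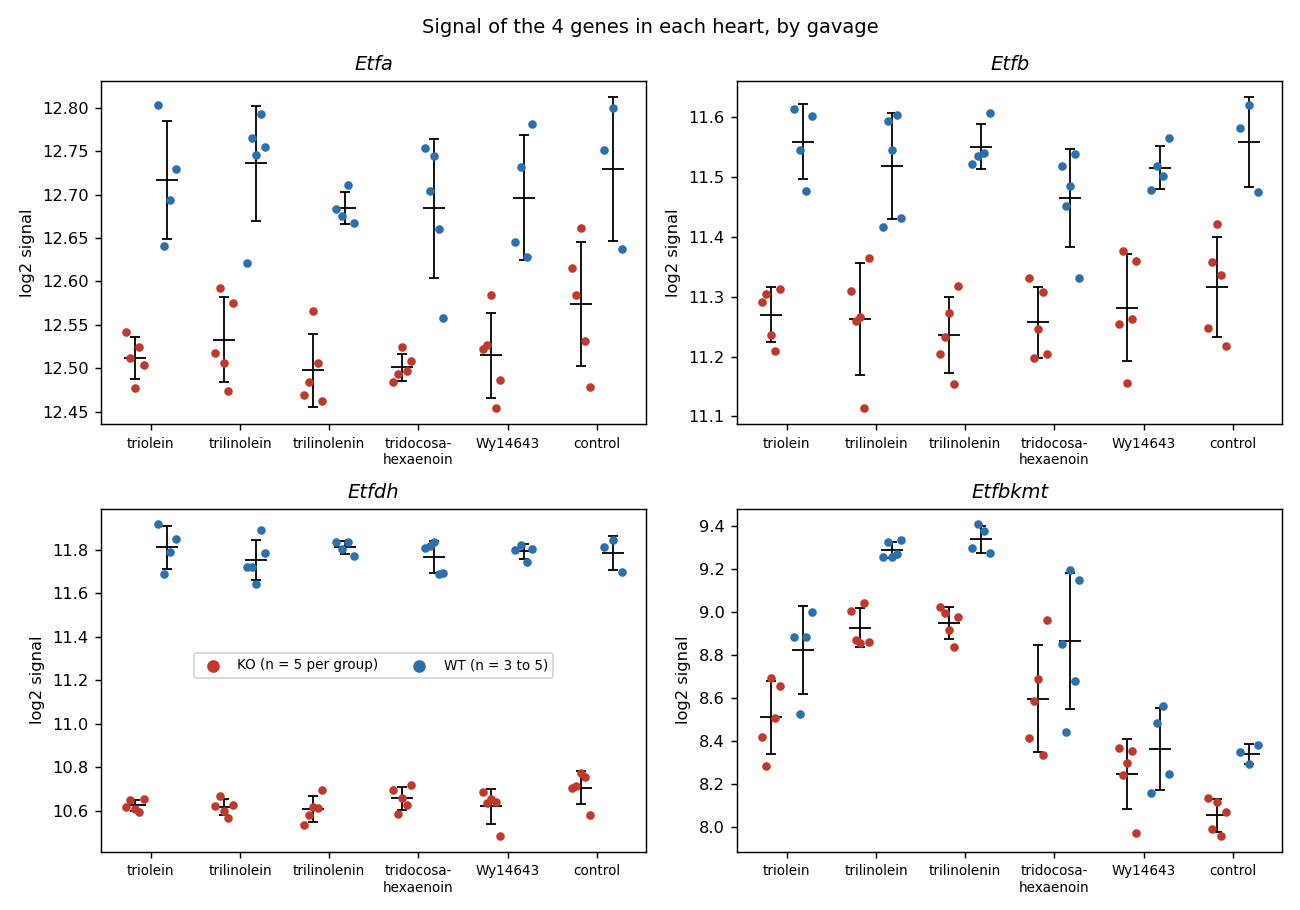
Log2 signal of Etfa, Etfb, Etfdh and Etfbkmt (brightest probe set of each) in every heart, with KO in red to the left of WT in blue at each gavage and the scale differing between panels. Each point is 1 heart, the horizontal mark is the group mean and the bars are 1 SD. The Etfdh values of KO hearts (10.48 to 10.77) all lie below those of WT hearts (11.64 to 11.92), and Etfbkmt is highest after trilinolein and trilinolenin in both genotypes.

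The ratio of 3' to 5' signal of the actin control probe sets, a measure of RNA integrity, was lowest after trilinolein and trilinolenin in each genotype. Its log2 mean was 0.73 after trilinolein and 0.70 after trilinolenin in KO hearts, against 0.80 in KO controls. In WT hearts it was 0.64 and 0.59, against 0.79 in WT controls. After triolein, tridocosahexaenoin and Wy14643 it was 0.69, 0.69 and 0.71 in WT hearts and 0.78, 0.80 and 0.82 in KO hearts. The mean thus lay below control after every gavage in WT hearts, Wy14643 included. Among cell type markers in KO hearts, trilinolein and trilinolenin each went with 2 of 9 fibroblast genes lower, Col1a1 and Col3a1, and 1 of 9 macrophage genes higher, Cd163. Calls in either direction made up 4.32% of all genes after trilinolein and 11.9% after trilinolenin in KO hearts. The summed linear signal of the fibroblast list was 6457 to 7145 after trilinolein, 6389 to 7234 after trilinolenin and 6527 to 7143 in KO controls. That of the macrophage list was 2085 to 2482, 1992 to 2387 and 1866 to 2353 in the same groups, so both sums overlapped the controls. Of 9 endothelial genes, Esam was higher after both oils, and Kdr and Emcn were lower after trilinolenin. In WT hearts 1 marker of these lists was called after any gavage, Kdr, which fell by 0.85 ± 0.24 after trilinolenin (SE, adjusted p = 0.0376, limma). That comparison called 3.41% of all genes. The summed signal of the endothelial list was 2461 to 2743 after trilinolenin and 2411 to 2924 at control in KO hearts, and 2500 to 2664 after trilinolenin and 2590 to 2629 at control in WT hearts. In KO hearts tridocosahexaenoin went with 2 of 9 macrophage genes higher, Cd163 and Cd14, where 3.54% of all genes were called in either direction. No atrial gene was called after any gavage, but the summed atrial signal varied widely between hearts. In WT hearts it was 14358 to 16116 after triolein, above the 6381 to 9310 of control. After each other gavage in WT hearts, trilinolein (4737 to 16789) among them, it overlapped control. In KO hearts every gavage overlapped control, at 5122 to 17683. The part of these measures in the Etfbkmt result was not tested.

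The second Etfbkmt probe set was dim, above 20 on the linear scale in 13 of 55 hearts, of which 12 had received trilinolein or trilinolenin and 1 tridocosahexaenoin. It therefore passed the brightness minimum only through the groups in which it was high, and its values are given without a test. In KO hearts it differed from control by 1.19 ± 0.21 after trilinolein (SE) and by 1.10 ± 0.21 after trilinolenin. The differences were 0.40 ± 0.21 after tridocosahexaenoin, -0.10 ± 0.21 after triolein and -0.01 ± 0.21 after Wy14643. In WT hearts its differences were 0.37, 1.18, 1.49 and 0.60 for the 4 oils in order of double bonds, and 0.03 for Wy14643.

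Comparing the triglycerides with each other asks whether the fatty acid they carry matters at 1 dose and time. They share glycerol and differ in the length and number of double bonds of the acid. Over the 6 pairs in KO hearts, Etfbkmt was higher after trilinolenin than after triolein by 0.44 ± 0.10 (SE, adjusted p = 0.0252, limma; 1.01% of genes called). Trilinolein was above triolein by 0.42 ± 0.10, just short of a call (adjusted p = 0.0501, limma; 0.413% of genes called). That difference was called without KO triolein replicate 3 (adjusted p = 0.0431, limma) or 5 (0.0455) and under several other settings. Leaving out 1 of 6 single hearts ended the trilinolenin call, namely trilinolenin replicates 1, 2 and 5 and triolein replicates 1, 2 and 4, with adjusted p between 0.0528 and 0.113. Fitting those 2 groups alone ended it too (adjusted p = 0.0569, limma). On the dim probe set, without a test, the differences from triolein were 1.29 ± 0.21 for trilinolein and 1.20 ± 0.21 for trilinolenin (SE).

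By group mean, Etfbkmt after tridocosahexaenoin, the oil with the most double bonds, lay below trilinolein and trilinolenin in KO hearts, without a call. In KO hearts Etfbkmt after tridocosahexaenoin differed by -0.35 ± 0.10 from trilinolenin (adjusted p = 0.116, limma; 0.328% of genes called) and by -0.33 ± 0.10 from trilinolein (adjusted p = 0.172; 0.388% called). The difference from trilinolenin was called without KO tridocosahexaenoin replicate 5 (adjusted p = 0.0363, limma). With the mean of both probe sets, that from trilinolein was -0.56, given without a test because the dim probe set enters it. From triolein, Etfbkmt after tridocosahexaenoin differed by 0.09 ± 0.10 (95% interval -0.12 to 0.30, with 0.0121% of genes called). Trilinolenin differed from trilinolein by 0.02 (95% interval -0.19 to 0.23; 0% called). In WT hearts the 9 hearts of trilinolein and trilinolenin (9.25 to 9.41) all lay above the 9 hearts of triolein and tridocosahexaenoin (8.44 to 9.19), as they did for 0.0607% of genes. These sets of oils were put together after the values were seen. In KO hearts the same sets overlapped, at 8.84 to 9.04 and 8.28 to 8.96, with 5 of 10 hearts above every heart of the other set.

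**Figure D2:**
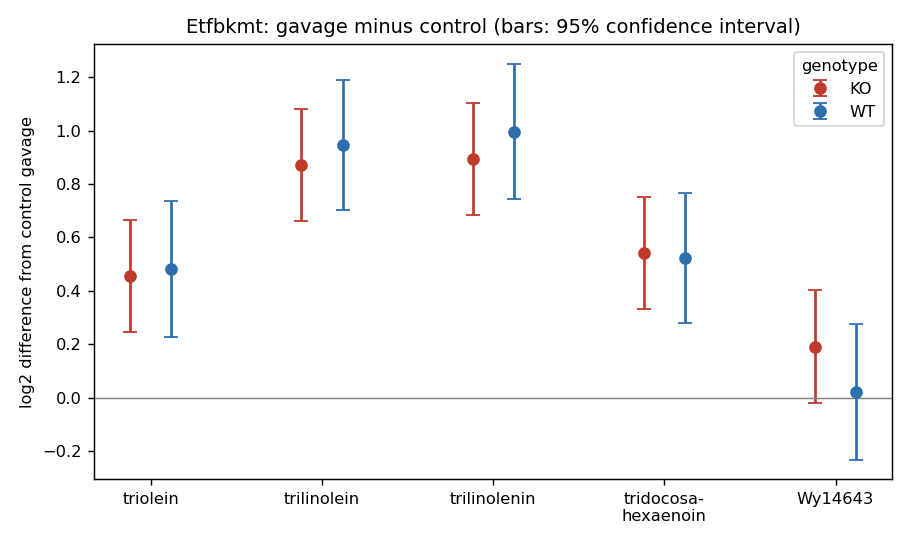
Difference of Etfbkmt from the control gavage on the log2 scale, for KO (red, left) and WT (blue, right) at each gavage. Points are fitted differences and bars are their 95% intervals without adjustment. The WT bars are not tests, because Etfbkmt was chosen by its level after trilinolein in WT hearts. KO runs from 0.19 after Wy14643 to 0.89 after trilinolenin, and WT from 0.02 to 1.00 over the same gavages.

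The response to a triglyceride could be set between genotypes as the KO response minus the WT response. For Etfbkmt these differences were -0.03 ± 0.16 for triolein, -0.08 ± 0.16 for trilinolein, -0.10 ± 0.16 for trilinolenin and 0.02 ± 0.16 for tridocosahexaenoin (SE). The 95% intervals, which use WT hearts and are not tests, reached from -0.43 at the lowest to 0.34 at the highest. For Wy14643 the difference was 0.17 ± 0.16. With the mean of both probe sets the 4 triglyceride values were -0.25, -0.03, -0.25 and -0.09 in the same order, so that of tridocosahexaenoin changed sign, and that of Wy14643 was 0.06.

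The KO level of Etfbkmt was the lower one at every gavage on the bright probe set. KO minus WT was -0.31 after triolein, -0.36 after trilinolein, -0.39 after trilinolenin, -0.27 after tridocosahexaenoin, -0.12 after Wy14643 and -0.29 at control (SE 0.10 to 0.12). The dim probe set gave -0.21, 0.28, -0.13, 0.06, 0.22 and 0.26 in the same order, so the probe sets disagree on the sign at 4 of 6 gavages. From low to high, the bright probe set ordered the groups as KO control, KO Wy14643, WT control, WT Wy14643, KO triolein, KO tridocosahexaenoin, WT triolein, WT tridocosahexaenoin, KO trilinolein, KO trilinolenin, WT trilinolein and WT trilinolenin. Only the steps up to KO Wy14643, to WT triolein and to WT trilinolein were larger than the pooled SD within groups of 0.17.

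Etfdh gave the largest genotype difference of the 4 genes. Its product passes electrons of ETF to ubiquinone, and inherited loss of either impairs the oxidation of several acyl-CoAs in humans. Its mRNA in KO hearts was 0.43 to 0.47 times that in WT hearts at all 6 gavages, and no gavage gave a call for it within a genotype.

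At control gavage the log2 signals of Etfdh were 10.71, 10.71, 10.77, 10.75 and 10.58 in KO hearts, against 11.81, 11.85 and 11.70 in WT hearts. Over all gavages the 30 KO hearts ranged from 10.48 to 10.77 with a median of 10.63, and the 25 WT hearts ranged from 11.64 to 11.92 with a median of 11.80. The genotypes did not overlap. A gap of this kind, with all KO hearts below all WT hearts, was found for 76 of 8237 genes (0.923%). Etfdh fell by 1.08 ± 0.05 at control (SE, adjusted p = 3.41e-21, limma), which placed it 36th from the lowest of 8237 genes. After the 4 triglycerides and Wy14643 the KO minus WT differences were -1.19, -1.14, -1.21, -1.11 and -1.17, each called (adjusted p at most 4.44e-24, limma). The second Etfdh probe set never exceeded 20 on the linear scale, and there 24 of 30 KO hearts lay below all WT hearts. Etfdh overlaps its neighbour Ppid by 23 bases in the annotation, and Ppid had no single-gene probe set.

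The subunit genes differed far less. Both were lower in KO hearts by group mean at each of the 6 gavages. The difference was called at all 6 for Etfb and at 5 of 6 for Etfa. At control gavage the log2 signals of Etfb were 11.25, 11.36, 11.42, 11.34 and 11.22 in KO hearts, against 11.58, 11.62 and 11.47 in WT hearts. The groups did not overlap there, as for 5.21% of genes that lay wholly below, and over all gavages 24 of 30 KO hearts lay below every WT heart. Etfb fell by 0.24 ± 0.06 at control (SE, adjusted p = 0.00601, limma), a fold of 0.845. After the other gavages, in the order of double bonds and then Wy14643, its KO minus WT differences were -0.29, -0.26, -0.31, -0.21 and -0.23, each called. The control difference of Etfb was not called without WT control replicate 2 (adjusted p = 0.0837, limma) or with its 2 groups fitted alone (adjusted p = 0.148, limma). Etfb overlaps Cldnd2 by 59 bases and Mir7051 by 73 bases in the annotation.

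For Etfa the log2 signals at control were 12.62, 12.58, 12.66, 12.53 and 12.48 in KO hearts, against 12.75, 12.80 and 12.64 in WT hearts. One KO heart lay above the lowest WT heart, and over all gavages 23 of 30 KO hearts lay below every WT heart. The difference of -0.16 ± 0.05 at control was short of a call (SE, adjusted p = 0.0575, limma), and was called without WT control replicate 3 (adjusted p = 0.0268, limma) or KO control replicate 3 (0.0306). It was -0.20 after triolein, -0.20 after trilinolein, -0.19 after trilinolenin, -0.18 after tridocosahexaenoin and -0.18 after Wy14643, each called (adjusted p at most 0.00392, limma). Together Etfa, Etfb and Etfdh gave 17 calls in 18 comparisons, all lower in KO. Among all genes, lower calls in KO made up 2.06% at control, 3.4% after triolein, 4.56% after trilinolein, 4.73% after trilinolenin, 4.08% after tridocosahexaenoin and 4.88% after Wy14643. With only the 2 groups of a comparison in the fit, 11 of the 18 remained past the threshold.

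**Figure D3:**
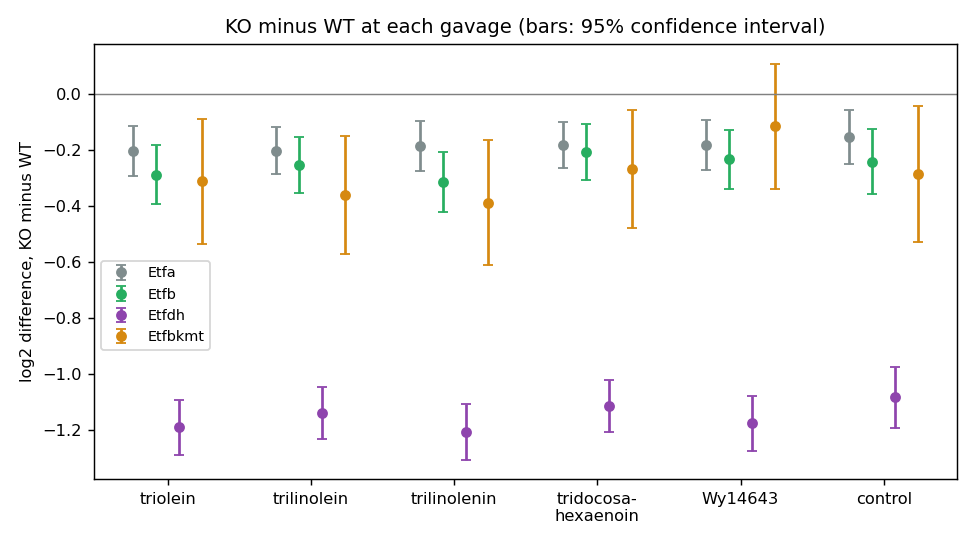
KO minus WT on the log2 scale for Etfa, Etfb, Etfdh and Etfbkmt at each gavage. Points are fitted differences and bars are 95% intervals without adjustment. Etfdh lies between -1.21 and -1.08, apart from the other 3 genes, which lie between -0.39 and -0.12. The bars of Etfbkmt are a description and not tests.

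Some markers of other tissues also differed between the genotypes. Of 2 bright skeletal muscle markers of 5 listed, Acta1, the skeletal actin gene that heart also expresses, fell by 1.79 in KO at control, and the other was not called. Myh4, Myh1 and Mylpf, which define skeletal muscle, stayed under the brightness minimum. The summed linear signal of those 5 genes was 6276 to 8273 in KO control hearts and 8960 to 10120 in WT control hearts. Of 2 bright brown adipocyte markers of 3 listed, Cidea fell by 0.65 at control, while Ucp1 stayed under the minimum, and their summed signal was 6352 to 7004 in KO and 7017 to 7096 in WT control hearts. No endothelial, fibroblast, smooth muscle, macrophage, atrial or erythroid marker was called at control, and all white adipocyte markers with a probe set stayed under the minimum. At the other gavages, KO was higher than WT for 1 to 4 of 9 macrophage genes after triolein, trilinolein, tridocosahexaenoin and Wy14643, for 4 of 5 smooth muscle genes after trilinolenin, and for 2 and 1 of 9 endothelial genes after trilinolenin and tridocosahexaenoin. These higher counts stand without a background, as the share of all genes called higher in KO is not given here. After Wy14643, 3 of 9 fibroblast genes were lower. The log2 actin 3' to 5' ratio was also higher in KO than in WT hearts by group mean after each oil and Wy14643. It was 0.78 against 0.69 after triolein, 0.73 against 0.64 after trilinolein and 0.70 against 0.59 after trilinolenin. After tridocosahexaenoin it was 0.80 against 0.69, after Wy14643 0.82 against 0.71, and at control 0.80 against 0.79. The part of these markers and of this ratio in the results on Etfa, Etfb and Etfdh was not tested.

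None of Etfa, Etfb and Etfdh was called after any gavage. In KO hearts the 15 differences from control ran from -0.10 to -0.03, all below 0, with 1 of them at an unadjusted p under 0.05. That one was Etfdh after trilinolenin, at -0.10 ± 0.05 (SE, adjusted p = 0.169, limma). All 15 share the KO control hearts, so their common sign is not 15 observations. In WT hearts the 15 differences ran from -0.09 to 0.03, none at an unadjusted p under 0.05, and the 95% intervals reached from -0.21 to 0.14. That included Wy14643, the PPARα agonist, after which Etfdh differed by 0.01 ± 0.06 in WT hearts, a comparison in which 0.0607% of genes were called. Of all genes, WT gavages called 0.0728% after triolein, 1.25% after trilinolein, 3.41% after trilinolenin and 1.86% after tridocosahexaenoin.

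The 15 differences of the gavage response between KO and WT hearts ran from -0.12 to 0.03 for Etfa, Etfb and Etfdh. They gave 0 calls by limma and 0 at an unadjusted p under 0.05, in comparisons that called 0% of genes each. Among triglycerides, their 18 differences ran from -0.04 to 0.05 in KO hearts and from -0.09 to 0.06 in WT hearts, again with 0 calls by limma and 0 at an unadjusted p under 0.05. Of all genes, the WT pairs called 0.0364% for trilinolein over triolein, 0.522% for trilinolenin over triolein, 0.534% for tridocosahexaenoin over triolein and 0% for trilinolenin over trilinolein. Tridocosahexaenoin called 0.765% against trilinolein and 0.558% against trilinolenin.

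Within groups, Etfa varied with its partners in WT hearts. After removing group means, Etfa and Etfb had a Pearson r of 0.72 and a Spearman rho of 0.66 over 25 WT hearts (permutation within groups, two-sided, p = 0.00071 and 0.00112, adjusted p = 0.00456 and 0.00672 over 12 relations). Without the 2 hearts farthest from the median r was 0.57. Etfa and Etfdh had an r of 0.72 and a rho of 0.77 (permutation p = 0.00076 and 0.00025, adjusted p = 0.00456 and 0.003), and r was 0.74 without the 2 farthest hearts. With the dim probe set averaged in, the Etfdh relation was no longer past the threshold (r = 0.42, permutation p = 0.0742, adjusted p = 0.223). The other 10 relations were not past it. In 30 KO hearts r was 0.22 for Etfa with Etfb and 0.44 for Etfa with Etfdh, and the difference between genotypes was not tested. Etfbkmt, whose product modifies ETF beta, had an r with Etfb of -0.40 in KO hearts and -0.17 in WT hearts, neither past the threshold (in KO hearts permutation p = 0.0268, adjusted p = 0.107).

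Some of the enzymes that feed ETF were also lower in KO hearts. Of 13 ETF-linked dehydrogenases listed, 11 were bright enough to test, and 3 were called lower and 0 higher in KO hearts at control. Lower calls made up 2.06% of all genes there, and 3.4% to 4.88% at the other gavages. The list median was -0.02, against 0.01 for all genes tested. Acadvl, the very long-chain acyl-CoA dehydrogenase, fell by 0.86 ± 0.06 (SE, adjusted p = 4.33e-17, limma). Acads, the short-chain enzyme, fell by 0.80 ± 0.10 (adjusted p = 2.64e-08, limma), and Acadm, the medium-chain enzyme, by 0.43 ± 0.05 (adjusted p = 2.45e-09, limma). Those 3 were called at all 6 gavages. Acadl, the long-chain enzyme, was called at 4 of 6, between -0.27 and -0.13, and Acad11 also at 4 of 6, between -0.28 and -0.20. In the opposite direction, Acadsb and Gcdh, which act on branched-chain amino acid and lysine breakdown, were higher in KO at 5 and 3 of the 6 gavages, by 0.21 to 0.34 and 0.26 to 0.44. The share of all genes called higher in KO is not given here, so higher calls in the partner lists stand without that background. The list as a whole therefore did not move one way.

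**Figure D4:**
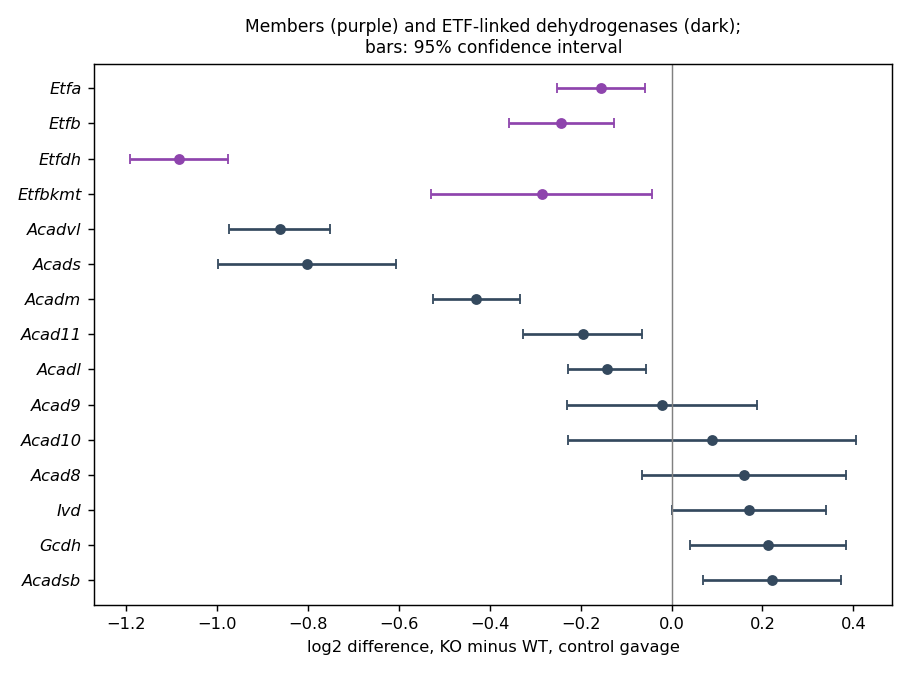
KO minus WT at control gavage on the log2 scale for the 4 genes (purple) and the 11 tested dehydrogenases that deliver electrons to ETF (dark). Points are fitted differences and bars are 95% intervals without adjustment. Etfdh at -1.08 lies beside Acadvl at -0.86 and Acads at -0.80, whereas Etfa and Etfb lie at -0.16 and -0.24. The bar of Etfbkmt is a description and not a test.

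On the acceptor side, 1 of 11 tested genes of ubiquinone synthesis and handling (13 listed) was lower in KO hearts at control and 0 were higher, with a list median of 0.02. It was Coq3, a methyltransferase of ubiquinone synthesis, which fell by 1.25 ± 0.11 (SE, adjusted p = 4.67e-12, limma) and was called at all 6 gavages. Coq10b was called lower at 4 of 6 gavages and Coq8a higher at 2. Lower calls in KO made up 2.06% of all genes at control, and 3.4% to 4.88% at the other gavages. Of 3 tested flavin supply genes (6 listed), 0 were called at control, with a median of -0.02. After Wy14643 1 of them, the FAD synthase gene Flad1, was higher in KO hearts by 0.24. Of 7 tested relatives of Etfbkmt (18 listed), 1 was lower at control, with a median of 0.03: Eef1akmt1, which methylates a translation elongation factor, fell by 0.33 ± 0.09 (adjusted p = 0.0217, limma) and was called at all 6 gavages. None of these lists had a call in any gavage of WT hearts. In KO hearts the calls were Acadl and Acadvl, both lower after trilinolenin, where 11.9% of all genes were called in either direction. No relative of Etfbkmt was called after a gavage.

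By the Pearson correlation over the 12 group means, a description with no test, Etfbkmt was most like Tmtc1 (0.985), Ypel3 (0.981), Wdr45 (0.974), Ms4a4d (0.970) and Abhd4 (0.962). A correlation over 0.9 was shared with 45 genes. Tmtc1 was picked out by its likeness over these same group means, so its differences from control are given without a test. They were 0.62 ± 0.10 after trilinolein, 0.67 ± 0.10 after trilinolenin, 0.39 ± 0.10 after tridocosahexaenoin and 0.21 ± 0.10 after triolein in KO hearts (SE). In WT hearts they were 0.66 ± 0.12 after trilinolein and 0.73 ± 0.12 after trilinolenin. Etfdh was most like Decr1 (0.998), Tesc (0.997), Acadvl (0.997) and Coq3 (0.996). Etfa was most like Acat1 (0.993), Mettl9 (0.987), Eef1akmt1 (0.986) and Tesc (0.984), and Etfb like Chpt1 (0.992), Mettl9 (0.991), Eef1akmt1 (0.988) and Gna12 (0.987). For these 3 genes the correlation is in effect the gap between KO and WT groups, and a gene with a model name only was the other of the first 5 in each.

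Tmtc1 lies on chromosome 6 as Etfbkmt does, 697 kb away in GRCm38.p6, which was seen after its values. Of 7 tested genes within 1.5 Mb of Etfbkmt, correlations over the group means ran from -0.75 to 0.98 with a median of 0.35. The genes next to Etfbkmt are Dennd5b and Amn1, and neither was called in any gavage or in KO against WT. Amn1, 6.09 kb away, had a correlation of 0.87 and lay close to the brightness minimum. It differed from control by 0.41 ± 0.16 after trilinolein in KO hearts (SE, adjusted p = 0.151, limma) and by 0.40 ± 0.18 in WT hearts (adjusted p = 0.349, limma).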

How the data were processed

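Signals of 55 arrays were used as deposited: log2 values made by the authors with GCRMA 2.2.0 (per the submitters' processing notes). Scanner software is not given in the sources used here. Of 45101 probe sets, 34945 had 1 symbol in the platform annotation, and control probe sets were left out. Each gene was represented by its probe set of highest mean, and 8237 of 18193 genes (45.3%) had a linear signal over 20 in 3 arrays or more and were tested. Group means of all 12 groups were fitted in limma 3.58.1 (R 4.3.3) with 43 residual degrees of freedom. P-values were adjusted by Benjamini and Hochberg in each of 33 comparisons, with calls at 0.05. Nothing in the labels gives an array batch. The limma p-values set a difference against the spread between hearts within groups. They do not separate genotype from substrain. The number of arrays limits the precision.

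Members and gene lists were chosen with earlier results of these data known. Named genes were the members, the 5 genes most like each member, up to 4 called genes per partner list and direct neighbours, and Tmtc1's position and Acad11, Acadl, Acadsb, Gcdh, Coq10b, Coq8a and marker genes were named after their values were seen. The scripts were tested on simulated data. Alternatives were no filter, a filter at 100 (5204 genes), the mean of all probe sets, all probe sets tested separately, repeated quantile normalization, array weights, a trended and robust prior, the replicate number as a block, the compared groups alone, Spearman correlation, each array left out, and a fit that drops 3 arrays of weight under 0.5, chosen after seeing the data. Replicate numbers did not pair the samples: in 1 of 28 comparisons every same-numbered pair correlated over 0.1.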

Additional observations from a re-analysis of the deposited data

Results flagged for a closer look

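In 44 sets of 4 or 5 hearts, 4 genes in 11 groups, the lowest or highest heart was set against the others by Dixon's criterion, by which chance marks about 1 in 20 sets. Etfa in WT trilinolein replicate 1, at 12.62, was below the other 4 hearts of its group at 12.75 to 12.79. Etfdh in KO Wy14643 replicate 5, at 10.48, was below the other 4 at 10.63 to 10.69.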

How the results depend on the processing

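Of the calls in KO hearts, Etfbkmt after trilinolein and trilinolenin held in all 20 alternatives each, and Etfdh in KO against WT held in every alternative at each gavage. For Etfbkmt these alternatives include the mean with the dim probe set, which is not used as support. KO against WT gave 17 calls for Etfa, Etfb and Etfdh, 11 with only the groups compared in the fit, and 16 to 18 with single arrays left out. The KO gavage calls were 4, and 3 to 4 with single arrays left out or under the other alternatives. Among triglyceride pairs in KO hearts, 1 call of Etfbkmt became 2 with a filter at 100, all probe sets tested separately, array weights, the trended and robust prior, the replicate block, or without arrays of weight under 0.5. It became 0 with only the groups compared, and 0 to 2 with single arrays left out. With the mean of all probe sets it became 3, a count that rests in part on the dim probe set and is not used. The added call was mostly trilinolein over triolein. The replicate numbers did not pair the samples (correlations of same-numbered pairs -0.25 to 0.37), and the replicate block changed no other call. The control difference of Etfa was called under 5 alternatives (adjusted p = 0.0326 with the filter at 100, 0.0389 with the mean of all probe sets, 0.017 after repeated quantile normalization, 0.0243 with array weights and 0.0177 with the robust prior), and without WT control replicate 3 (0.0268) or KO control replicate 3 (0.0306), all by limma. Of 12 correlations 2 were called, and 1 with the mean of all probe sets. Of the tested values given singly, those that changed sign were Etfdh after trilinolenin in KO hearts (0.031) and Etfbkmt of trilinolenin over trilinolein in KO hearts (-0.035), both with the mean of all probe sets, Etfdh after Wy14643 in WT hearts with array weights (-0.0033), and Etfa with Etfb in KO hearts without the 2 farthest hearts (-0.015). With single arrays left out, Etfdh after Wy14643 in WT hearts ran from -0.037 to 0.037, and Etfbkmt of tridocosahexaenoin over triolein in KO hearts from -0.0056 to 0.15. None of these was called, and the cause was not tested. Of the Etfbkmt differences given without a test, the genotype difference of the tridocosahexaenoin response ran from -0.094 to 0.10 over 28 alternatives, that of the triolein response from -0.25 to 0.031, and WT Wy14643 minus control from -0.044 to 0.090. With the mean of both probe sets, Etfbkmt in KO against WT was -0.01 at control, -0.04 after trilinolein and 0.05 after Wy14643. The differences of Etfa, Etfb and Etfdh given only as ranges changed sign in 85 of 1637 alternative values and none gained a call. Over all genes, 97 of 330 counts of calls moved by over 1.5 times. After tridocosahexaenoin in KO hearts, 292 genes became 12 with only the groups compared and 93 without arrays of weight under 0.5. After triolein 95 became 391 with array weights, 26 with no filter and 31 with only the groups compared, after trilinolein 356 became 549 with array weights and 213 with no filter, and after trilinolenin 984 became 633 with only the groups compared. The second probe sets of Etfdh and Etfbkmt lie near or under the brightness minimum, which limits what they show.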
